A study of Mus musculus with 4 samples.

Results

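The genes described here carry carbon from glucose to the tricarboxylic acid (TCA) cycle. They are 46 genes chosen by name from the 55487 genes of a mouse RNA sequencing count table: 24 of glycolysis, its transporters and its regulators, and 22 of pyruvate dehydrogenase (PDH), pyruvate carboxylase and the TCA cycle. The table held 4 libraries of skeletal progenitors sorted from hindlimbs of pups at postnatal day 1, and all 46 genes passed the filter on low counts.

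The groups were taken from the sample titles as cKO, with replicates 2 and 3, and WT, also with replicates 2 and 3. Ecsit encodes an assembly factor of mitochondrial complex I, and the study's conditional knockout (cKO) removes it with a Cre recombinase driven by Prx1, a gene of early limb mesenchyme. The study's methods sorted cells by the GFP of the Rosa26mTmG reporter, which marks cells in which Cre has acted, and by absence of CD45, Tie2 and Ter119. A Prx1-Cre population is the whole limb mesenchyme lineage and not a single cell type. The genotype field gave the opposite assignment, EcsitPrx1;Rosa26mTmG for the libraries titled WT and Ecsitfl/fl;Rosa26mTmG for those titled cKO, although cells of a mouse with no Cre would not carry GFP. The labels give no treatment, and nothing in them says whether a library is 1 pup or a pool, so the p-values here measure only the spread between these 4 samples.

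Ecsit itself went against the titles. It had 33.6 and 30.3 CPM (a gene's counts relative to its library's scaled total) in the libraries labelled cKO, against 12.6 and 18.9 CPM in the libraries labelled WT, a log2 fold change of 1.02 (adjusted p = 0.0245). Groups are therefore called by their labels throughout, and every direction below would be turned round if the 2 labels had been exchanged.

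The libraries held 19271414 to 20152872 counts under the cKO label and 18266573 to 18489694 under the WT label. CPM values carry edgeR's TMM scaling, with factors of 0.892 and 0.926 for the libraries labelled cKO and 1.10 for both labelled WT. With library totals alone, the log2 fold change of all genes moved by a median of -0.28, and 22.1% of the calls were then higher, against 49.6% with TMM. A gene is called here at an adjusted p under 0.05 in edgeR's quasi-likelihood test over 16157 genes. The difference between labels also followed exon length over all genes, with medians of 0.73 in the shortest of 10 length groups of protein-coding genes and -0.77 in the longest, and WT 3 differed from WT 2 in the same direction, by 0.56 and -0.48. Xist was at 0.223 and 188 CPM in cKO 2 and cKO 3 and at 1121 and 0.443 CPM in WT 2 and WT 3, so each label held 1 library with high and 1 with low Xist. The Y-linked Ddx3y was high in cKO 2 (53.5 CPM) and WT 3 (76.2 CPM) and at 0 CPM in cKO 3 and 0.1496 CPM in WT 2. Of the members, Pgk1, Pdha1, Pdk3 and Idh3g lie on the X chromosome.

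Markers of other cells moved with the labels. Of the tested muscle markers, 7 of 10 were higher in the libraries labelled cKO, where they summed to 207 and 207 CPM, against 41.9 and 59.3 CPM in the libraries labelled WT. All 5 tested erythroid markers were higher, with sums of 2017 and 1914 CPM in cKO against 682 and 604 CPM in WT, and so were all 4 tested fat markers, with 170 and 129 CPM in cKO against 43.1 and 51.0 CPM in WT. Of 3 tested blood markers, 2 were higher, with sums of 7.35 and 7.13 CPM in cKO against 3.24 and 3.89 CPM in WT. All 5 cartilage markers were lower, with sums of 4085 and 4070 CPM in cKO against 13910 and 6894 CPM in WT. None of the 11 skeletal progenitor markers and none of the 6 endothelial markers was called. No listed marker was at 0 in all libraries, and the part of these cells in the results below was not tested. Nor was the part of the exon length trend and of the TMM scaling in these marker values. In bulk samples, fewer cells of a type and less RNA per cell cannot be told apart.

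Glycolysis splits glucose into pyruvate in the cytosol. Glucose enters through transporters, hexokinase traps it as a phosphate, phosphofructokinase sets the pace of the pathway, and the later enzymes return ATP and NADH. Pyruvate is then reduced to lactate, which leaves the cell, or enters mitochondria, where pyruvate dehydrogenase turns it into acetyl-CoA and pyruvate carboxylase into oxaloacetate. The TCA cycle oxidizes acetyl-CoA and passes electrons to the respiratory chain. Isozymes of 1 step are encoded by separate genes with different tissue patterns, and cells of the osteoblast lineage and chondrocytes are known for heavy use of glycolysis.

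Of the 46 genes, 10 were higher and 3 were lower in the libraries labelled cKO, against 14.1% of all genes called higher and 14.3% called lower. Their median log2 fold change was 0.44, against -0.02 over all genes tested, and 37 of 46 were above 0. Of the 24 glycolysis genes, 3 were higher (Tpi1, Pgam1, Eno2) and 3 were lower (Hk2, Slc2a3, Aldoc), 12.5% each way, which is close to the background. Of the 22 PDH and TCA genes, 7 were higher, or 31.8%, and none was lower by edgeR, by an unadjusted p under 0.05 or by DESeq2. The 2 libraries labelled cKO lay above both labelled WT for 31 genes and below both for 8, where 36.3% and 36.2% of all genes did so.

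**Figure D1:**
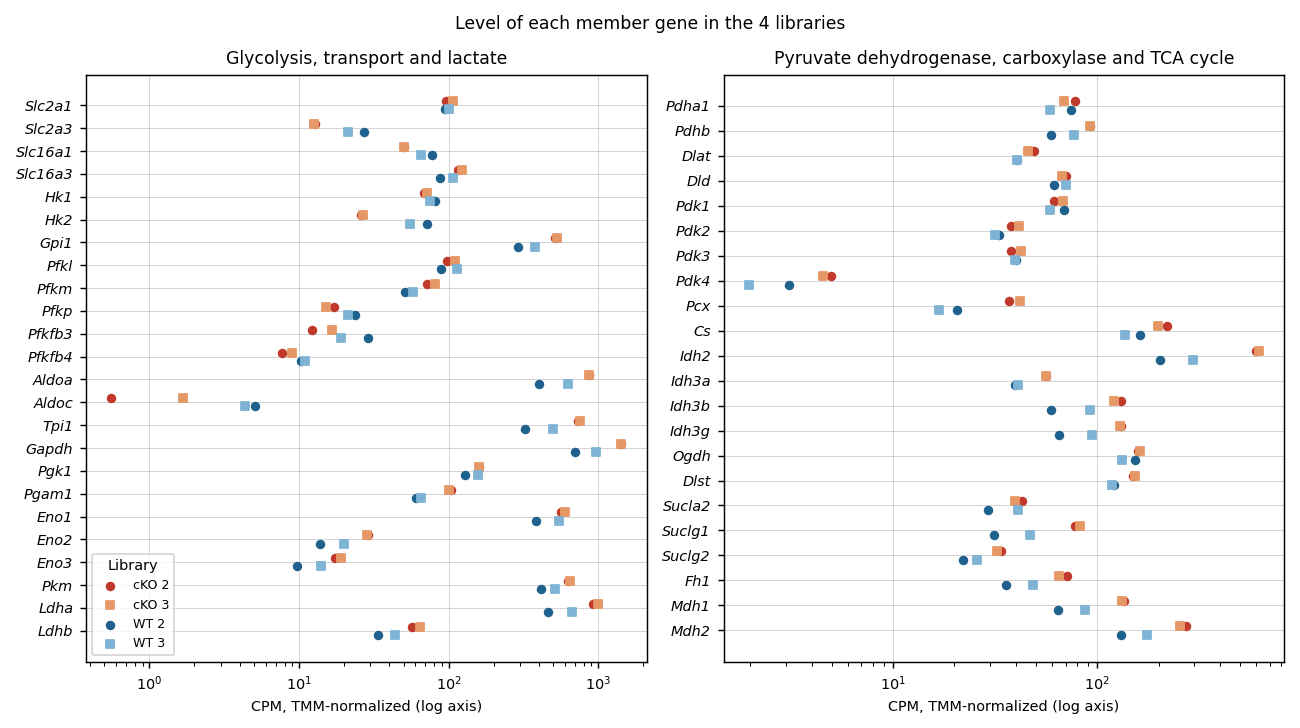
Level of each of the 46 genes in each library, in TMM-normalized CPM on a log axis, with the libraries labelled cKO (red, orange) drawn above those labelled WT (dark and light blue). Hk2 and Aldoc have their cKO points far left of their WT points, Idh2 and Pcx have them to the right, and for Gapdh, Aldoa, Tpi1 and Ldha WT 3 lies between WT 2 and the cKO libraries.

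The scaling bears on these counts. With library totals alone, 3 members were higher (Pcx, Idh2, Suclg1) and 6 were lower (Slc2a3, Hk2, Aldoc, Pfkp, Pfkfb3, Slc16a1), where 6.77% and 23.9% of all genes were called, and the members' median was 0.17. Gene length bears on them as well. Over the 46 genes, Spearman's rho between log2 fold change and exon length was -0.45, and over 16143 genes it was -0.43. These correlations are descriptions across genes of the same 4 libraries. When the length trend was taken out, 14 members were higher and 4 lower (15.8% and 12.8% of all genes). Pgam1 (adjusted p = 0.0902) and Idh3g (adjusted p = 0.0524) no longer passed, while Gpi1, Gapdh, Cs, Idh3a, Idh3b and Dlst were called higher and Slc16a1 lower.

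The promoters of Hk2, Pcx and Idh2 are shown because these 3 genes had the steepest change on each side that rested on more than 10 counts in every library and passed under every scaling tried. Each line gives the 250 bases before a transcription start, 5′ to 3′ on the gene's strand, from RefSeq (GRCm38.p6), with the core of the hypoxia-inducible factor (HIF) motif in capitals. That core was searched as ACGTG or GCGTG on both strands, so it reads CACGT or CACGC where it lies on the other strand, and a palindromic CACGTG counts on both. The windows are chr6:82774455-82774704 on the minus strand for Hk2, chr19:4510222-4510471 on the plus strand for the first annotated start of Pcx, and chr7:80115351-80115600 on the minus strand for Idh2. In GENCODE vM21 (GRCm38) the genes are Hk2 (ENSMUSG00000000628.10) at chr6:82725025-82774454, Pcx (ENSMUSG00000024892.17) at chr19:4510472-4621752 and Idh2 (ENSMUSG00000030541.16) at chr7:80094846-80115392.
Hk2: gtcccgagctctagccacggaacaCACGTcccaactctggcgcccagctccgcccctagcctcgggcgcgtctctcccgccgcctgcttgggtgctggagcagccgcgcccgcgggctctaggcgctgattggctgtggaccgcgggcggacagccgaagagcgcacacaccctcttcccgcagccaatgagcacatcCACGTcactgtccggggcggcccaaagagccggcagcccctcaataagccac
Pcx: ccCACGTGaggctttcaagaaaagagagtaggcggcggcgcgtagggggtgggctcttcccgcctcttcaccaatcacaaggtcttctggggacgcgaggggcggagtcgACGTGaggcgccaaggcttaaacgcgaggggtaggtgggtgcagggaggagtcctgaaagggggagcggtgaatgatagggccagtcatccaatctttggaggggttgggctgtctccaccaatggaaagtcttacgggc
Idh2: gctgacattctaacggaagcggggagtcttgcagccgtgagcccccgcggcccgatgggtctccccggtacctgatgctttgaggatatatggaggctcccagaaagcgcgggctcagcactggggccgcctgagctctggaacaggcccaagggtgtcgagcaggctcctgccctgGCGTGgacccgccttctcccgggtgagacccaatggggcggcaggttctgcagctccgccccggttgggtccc

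The window of Hk2, called lower, held 2 matches. Those of Pcx and Idh2, called higher, held 3 and 1, and 2 of the 3 in Pcx are the strands of 1 palindrome. The window of another annotated start of Pcx, chr19:4594069-4594318, is not shown and held 0 matches. Windows were found for 44 of the 46 genes, with 64 windows in all. The HIF core was in 73.4% of them, against 38.6% of all 32851 windows. It was in 28 of 35 windows of glycolysis genes and in 19 of 29 windows of PDH and TCA genes. It was also in 8 of 11 windows of the members called higher and in all 3 windows of the matched members called lower. The GC box GGGCGG, searched on both strands, was in 51.6% of the members' windows and in 32.7% of all windows, and the oestrogen-related receptor half-site AAGGTCA in 1.56% and 4.08%. A match is a description of the letters and not a bound site.

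Of the 4 genes for glucose entry and trapping (Slc2a1, Slc2a3, Hk1, Hk2), Hk2 and Slc2a3 were lower and the other 2 were not called. Hk2, the inducible hexokinase that sits on the mitochondrial outer membrane, had 25.9 and 26.7 CPM in the libraries labelled cKO, against 71.8 and 55.2 CPM in those labelled WT. The groups were far apart relative to their spread, with means of 26.3 ± 0.59 CPM in cKO and 63.5 ± 11.7 CPM in WT (SD, n = 2 each). The log2 fold change was -1.27 ± 0.22 (SE, adjusted p = 0.0139), 2.41-fold lower. Hk1, the constitutive isozyme, had 68.1 and 72.2 CPM in cKO against 81.1 and 75.1 CPM in WT and was not called (log2 fold change -0.16, adjusted p = 0.545). Per kilobase of exon, Hk2 was thus at 0.544 and 0.529 times the level of Hk1 in cKO and at 1.27 and 1.05 times in WT. By this measure Hk2 led in both WT libraries and Hk1 in both cKO libraries. In CPM, without division by length, Hk1 was above Hk2 in every library, so which led in WT depends on the exon length used. The scaling cannot move the ratio of Hk2 to Hk1 within a library. The summed hexokinase level was 12.3 and 12.9 CPM per kilobase in cKO and 21.5 and 18.1 CPM per kilobase in WT.

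Slc2a3, the high-affinity glucose transporter GLUT3, had 12.8 and 12.6 CPM in cKO against 27.2 and 21.2 CPM in WT. It was 1.91-fold lower (log2 fold change -0.93 ± 0.23 SE, adjusted p = 0.0240). Slc2a1, the widely expressed GLUT1 and the main transporter here, had 96.0 and 106 CPM in cKO against 95.2 and 101 CPM in WT, and these values overlapped (log2 fold change 0.05, adjusted p = 0.868). GLUT3 was at 0.0645 and 0.0572 times the per-kilobase level of GLUT1 in cKO and at 0.138 and 0.101 times in WT. The sum of both transporters overlapped between labels, at 29.2 and 32.1 CPM per kilobase in cKO and 30.9 and 31.7 CPM per kilobase in WT. The lower transporter was therefore the minor one.

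Phosphofructokinase and its regulators gave no call. Pfkl, the liver-type subunit, had 98.1 and 110 CPM in cKO and 89.1 and 113 CPM in WT (log2 fold change 0.04, adjusted p = 0.883). Pfkm, the muscle-type subunit, had 71.7 and 81.6 CPM in cKO and 51.2 and 57.5 CPM in WT (log2 fold change 0.50, adjusted p = 0.0867), and Pfkp, the platelet-type subunit, 17.3 and 15.2 CPM in cKO and 23.8 and 21.4 CPM in WT (log2 fold change -0.48, adjusted p = 0.120). With the length correction all 3 log2 fold changes were above 0 (Pfkm 0.35, Pfkl 0.27, Pfkp 0.22), and the difference between Pfkm and Pfkl was 0.08 in place of 0.45. Pfkfb3 makes fructose 2,6-bisphosphate, the strongest activator of phosphofructokinase. It had 12.3 and 16.6 CPM in cKO and 29.0 and 19.0 CPM in WT (log2 fold change -0.73, adjusted p = 0.0803). Its relative Pfkfb4 also did not pass (log2 fold change -0.34, adjusted p = 0.310).

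The abundant enzymes from glucose 6-phosphate to lactate made a different picture. For the main isozyme of 9 steps, phosphofructokinase left out (Gpi1, Aldoa, Tpi1, Gapdh, Pgk1, Pgam1, Eno1, Pkm and Ldha), both cKO libraries lay above both WT libraries, as for 36.3% of all genes, with a median log2 fold change of 0.70. Of these 9, edgeR called Tpi1 and Pgam1, or 22.2%, against 14.1% of all genes. WT 3 lay above WT 2 in all 9, by a median of 0.48 on the log2 scale, so the 2 WT libraries differed from each other by an amount not far below the difference between labels.

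Tpi1, which interconverts the triose phosphates, had 731 and 761 CPM in cKO against 327 and 499 CPM in WT. It was 1.81-fold higher (log2 fold change 0.85 ± 0.27 SE, adjusted p = 0.0470). Pgam1, the mutase that makes 2-phosphoglycerate, had 104 and 101 CPM in cKO against 60.9 and 65.0 CPM in WT. It was 1.63-fold higher (log2 fold change 0.70 ± 0.18 SE, adjusted p = 0.0295), and of the 9 it had the closest pair of WT values. Of its sequence, 34.9% of 75-base stretches also occur in 2 pseudogenes, so its count is uncertain.

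Gapdh, the dehydrogenase that makes NADH in glycolysis and the most abundant member per kilobase of exon (273 CPM per kilobase), had 1418 and 1428 CPM in cKO and 698 and 973 CPM in WT. With a log2 fold change of 0.77 it did not pass (adjusted p = 0.0599), and 22.6% of its 75-base stretches occur in copies, 114 of them processed pseudogenes. Aldoa, which splits fructose 1,6-bisphosphate, had 873 and 866 CPM in cKO and 401 and 632 CPM in WT (log2 fold change 0.75, adjusted p = 0.0735). Gpi1, the isomerase of glucose 6-phosphate, had 514 and 530 CPM in cKO and 293 and 381 CPM in WT (log2 fold change 0.63, adjusted p = 0.0740). These 3 genes passed in DESeq2, as did Ldha and Idh3b, and of the 3 Gpi1 and Gapdh passed with the length correction. Pgk1, the first ATP-making enzyme of the pathway, had 159.5 and 160.1 CPM in cKO and 128 and 156 CPM in WT (log2 fold change 0.17, adjusted p = 0.542), and 52.8% of its stretches occur in 4 pseudogenes. Pkm, which makes pyruvate, had 626 and 650 CPM in cKO and 417 and 518 CPM in WT (log2 fold change 0.45, adjusted p = 0.170). Gene counts do not separate its M1 and M2 isoforms, and 17.8% of its stretches occur in copies.

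The minor isozymes split by gene. Aldoc, the brain-type aldolase, was the member with the lowest level. It had 10 and 30 counts in the libraries labelled cKO against 102 and 89 counts in those labelled WT, or 0.557 and 1.68 CPM in cKO against 5.09 and 4.38 CPM in WT. It was lower in cKO (log2 fold change -2.07 ± 0.49 SE, adjusted p = 0.0222). The size rested on single cKO libraries, with a log2 fold change of -1.49 (adjusted p = 0.0960) without cKO 2 and -3.09 without cKO 3. It was at least 88.3 times less abundant per kilobase than Aldoa in every library, so the summed aldolase level followed Aldoa.

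Eno2, the neuronal enolase, had 28.7 and 28.6 CPM in cKO against 13.8 and 20.1 CPM in WT, 1.69-fold higher (log2 fold change 0.75 ± 0.24 SE, adjusted p = 0.0494). Eno3, the muscle enolase, had 17.3 and 19.0 CPM in cKO and 9.68 and 13.9 CPM in WT (log2 fold change 0.62, adjusted p = 0.0974). Eno1, the ubiquitous form, had 562 and 603 CPM in cKO and 386 and 548 CPM in WT (log2 fold change 0.32, adjusted p = 0.355), and 23.0% of its 75-base stretches occur in copies. Relative to Eno1, Eno2 was at 0.0584 and 0.0541 in cKO and 0.0409 and 0.0420 in WT per kilobase, a difference of 0.44 on the log2 scale. Beside the muscle-type genes Eno3 and Pfkm stand the muscle markers above, whose part was not tested.

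No gene of lactate dehydrogenase or lactate export passed in the unblocked fit. Ldha, the subunit favouring lactate formation, had 919 and 995 CPM in cKO and 465 and 671 CPM in WT (log2 fold change 0.75, adjusted p = 0.0630). Ldhb, the subunit favouring pyruvate, had 56.7 and 64.4 CPM in cKO and 33.7 and 43.9 CPM in WT (log2 fold change 0.64, adjusted p = 0.0562), and 12.6% of its stretches occur in a pseudogene. A block that matched cKO 2 with WT 3 and cKO 3 with WT 2, chosen after seeing the data, also matched the libraries by Xist and Ddx3y, and there Ldha (adjusted p = 0.0386), Ldhb (0.0394), Aldoa (0.0339) and Gapdh (0.0429) were called. The ratio of Ldhb to Ldha was 0.130 and 0.136 in cKO and 0.153 and 0.138 in WT, with a log2 difference of -0.13, the smallest among the pairs whose labels did not overlap. Slc16a1, the transporter MCT1, which moves lactate both ways, had 50.3 and 50.5 CPM in cKO and 77.6 and 65.8 CPM in WT (log2 fold change -0.51, adjusted p = 0.0802). Slc16a3, the exporter MCT4, had 115 and 123 CPM in cKO and 87.4 and 107 CPM in WT (log2 fold change 0.29, adjusted p = 0.283). MCT1 was at 0.523 and 0.493 times the per-kilobase level of MCT4 in cKO and 1.07 and 0.737 times in WT, while their sum overlapped between labels.

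**Figure D2:**
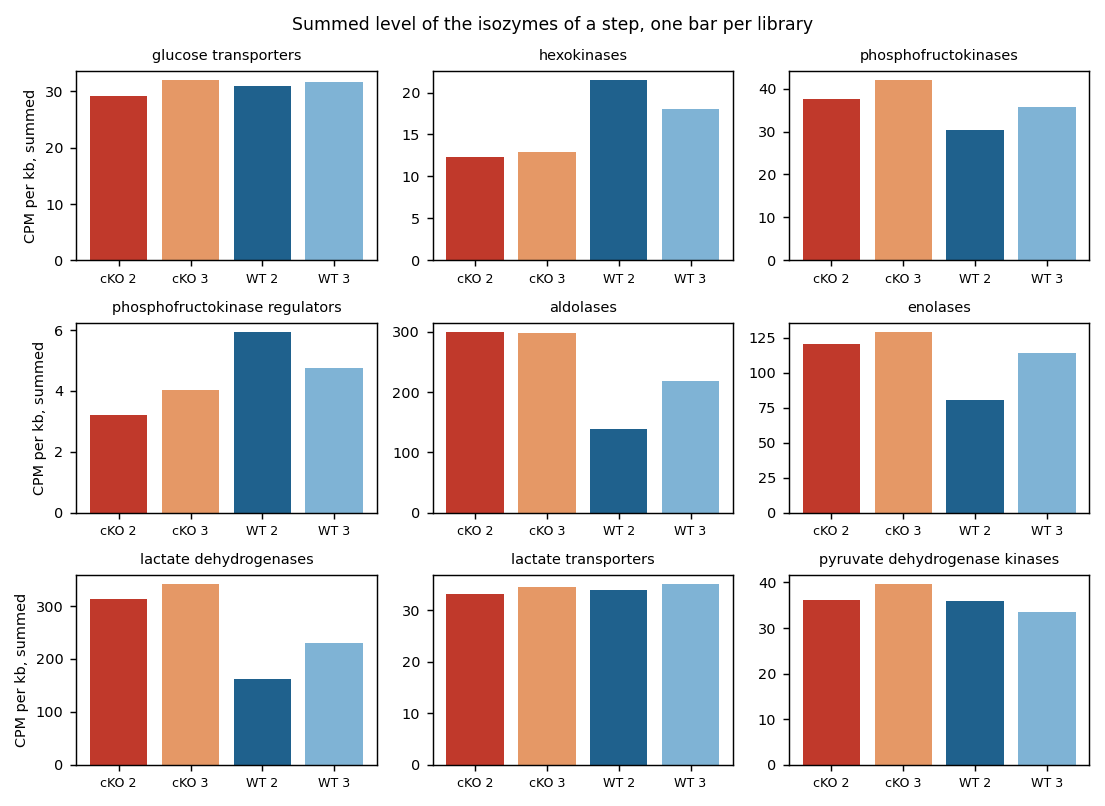
Summed level of the isozymes of each of 9 steps, in CPM per kilobase of exon, with 1 bar per library and cKO left of WT. Hexokinases and the phosphofructokinase regulators stand lower in both cKO libraries, aldolases, enolases, lactate dehydrogenases and phosphofructokinases higher, and glucose and lactate transporters overlap. Pyruvate dehydrogenase kinases stand higher by a narrow margin, at 36.1 and 39.7 in cKO and 35.9 and 33.6 in WT.

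The pyruvate dehydrogenase complex and its kinases held no called member. The 4 subunit genes had log2 fold changes of 0.06 to 0.44, and none passed an unadjusted p under 0.05 or DESeq2. Pdhb, the E1 beta subunit and the most abundant of them per kilobase, had 92.1 and 92.7 CPM in cKO and 59.5 and 77.1 CPM in WT (adjusted p = 0.137). Pdha1, the catalytic E1 alpha subunit, had 78.3 and 68.5 CPM in cKO and 74.2 and 58.7 CPM in WT (adjusted p = 0.615), and Dld, the E3 subunit shared with other dehydrogenases, also overlapped between labels. Dlat, the E2 core, had 49.0 and 45.6 CPM in cKO and 40.5 and 40.6 CPM in WT (adjusted p = 0.390).

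The kinases Pdk1 to Pdk4 switch the complex off by phosphorylation. Pdk4, known as the starvation-induced form, had 4.95 and 4.55 CPM in cKO and 3.09 and 1.97 CPM in WT (log2 fold change 0.91, adjusted p = 0.0775) and was the only kinase with an unadjusted p under 0.05; DESeq2 called none. Pdk3, the most abundant kinase per kilobase, had 37.8 and 42.2 CPM in cKO and 40.3 and 39.7 CPM in WT (adjusted p = 0.998). Pdk1, a known HIF target, overlapped as well, with 61.7 and 68.2 CPM in cKO and 68.9 and 58.8 CPM in WT (adjusted p = 0.933). The summed kinase level was 36.1 and 39.7 CPM per kilobase in cKO and 35.9 and 33.6 CPM per kilobase in WT.

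Pyruvate carboxylase, which refills the cycle with oxaloacetate, did change. Pcx had 36.9 and 41.9 CPM in cKO against 20.6 and 16.8 CPM in WT, 2.11-fold higher (log2 fold change 1.08 ± 0.22 SE, adjusted p = 0.0172). Unlike the 9 main glycolytic isozymes, it was lower in WT 3 than in WT 2. Per kilobase, Pcx stood at 0.371 and 0.480 times the level of Pdha1 in cKO and at 0.218 and 0.225 times in WT, a log2 difference of 0.93.

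Of the 13 TCA cycle genes, 6 were higher, or 46.2%, against 14.1% of all genes, and none was lower. All 13 had a log2 fold change above 0 (0.17 to 1.30, median 0.70), and 12 lay higher with no overlap between labels, as 36.3% of all genes did. DESeq2 called 7 of them higher (14.4% of all genes) and the length correction 9 (15.8%). With library totals alone 11 were above 0 and 2 were called higher (6.77% of all genes). Idh2, the NADP-dependent mitochondrial isocitrate dehydrogenase and the most abundant member of the cycle per kilobase, had the largest increase among all 46 genes. It had 603 and 621 CPM in cKO against 203 and 295 CPM in WT (612 ± 12.6 and 249 ± 65.5 CPM, mean ± SD, n = 2 each). It was 2.46-fold higher (log2 fold change 1.30 ± 0.26 SE, adjusted p = 0.0167).

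The NAD-dependent isocitrate dehydrogenase is a separate complex of 3 kinds of subunit. Idh3g, a regulatory subunit, had 131 and 130 CPM in cKO against 65.0 and 94.4 CPM in WT and was higher (log2 fold change 0.71, adjusted p = 0.0481). Idh3b, the other regulatory subunit, had 130.2 and 122 CPM in cKO and 59.7 and 92.5 CPM in WT (log2 fold change 0.73, adjusted p = 0.0553). Idh3a, the catalytic subunit, had 56.2 and 56.0 CPM in cKO and 39.6 and 40.8 CPM in WT (log2 fold change 0.48, adjusted p = 0.0856). The 3 estimates were of similar size and fell on both sides of the threshold, and no test of a difference between them was made.

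Suclg1, the alpha subunit common to both succinyl-CoA synthetases, had 78.3 and 82.3 CPM in cKO against 31.4 and 47.0 CPM in WT. It was 2.05-fold higher (log2 fold change 1.04 ± 0.24 SE, adjusted p = 0.0211). Its alternative partners did not pass. Suclg2, the GTP-forming subunit, had 34.0 and 32.4 CPM in cKO and 21.95 and 25.9 CPM in WT (log2 fold change 0.47, adjusted p = 0.115), and 11.6% of its stretches occur in a pseudogene. Sucla2, the ATP-forming subunit, had 42.9 and 39.4 CPM in cKO and 29.2 and 41.0 CPM in WT, the only member of the cycle whose labels overlapped.

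Fh1, fumarase, had 71.3 and 64.9 CPM in cKO against 35.6 and 48.3 CPM in WT (log2 fold change 0.70 ± 0.22 SE, adjusted p = 0.0462). Mdh2, the mitochondrial malate dehydrogenase, had 274 and 255 CPM in cKO against 131 and 175 CPM in WT (log2 fold change 0.79 ± 0.22 SE, adjusted p = 0.0360). Mdh1, the cytosolic form of the malate-aspartate shuttle, had 136 and 133 CPM in cKO against 64.4 and 87.3 CPM in WT (log2 fold change 0.82 ± 0.21 SE, adjusted p = 0.0283). Both malate dehydrogenases were higher by a like amount, and the ratio of Mdh2 to Mdh1 overlapped between labels, at 1.45 and 1.38 in cKO and 1.47 and 1.45 in WT per kilobase.

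Cs, citrate synthase at the entry of the cycle, had 219 and 199 CPM in cKO and 162 and 137 CPM in WT (log2 fold change 0.49, adjusted p = 0.105). The oxoglutarate dehydrogenase complex, which makes succinyl-CoA, did not pass either. Ogdh, its E1, had 158 and 162 CPM in cKO and 153 and 132 CPM in WT (log2 fold change 0.17, adjusted p = 0.537), and Dlst, its E2 core, 150.0 and 153 CPM in cKO and 121 and 118 CPM in WT (log2 fold change 0.34, adjusted p = 0.192). With the length correction Dlst was called (adjusted p = 0.0132), and it is the longest of the cycle genes here.

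**Figure D3:**
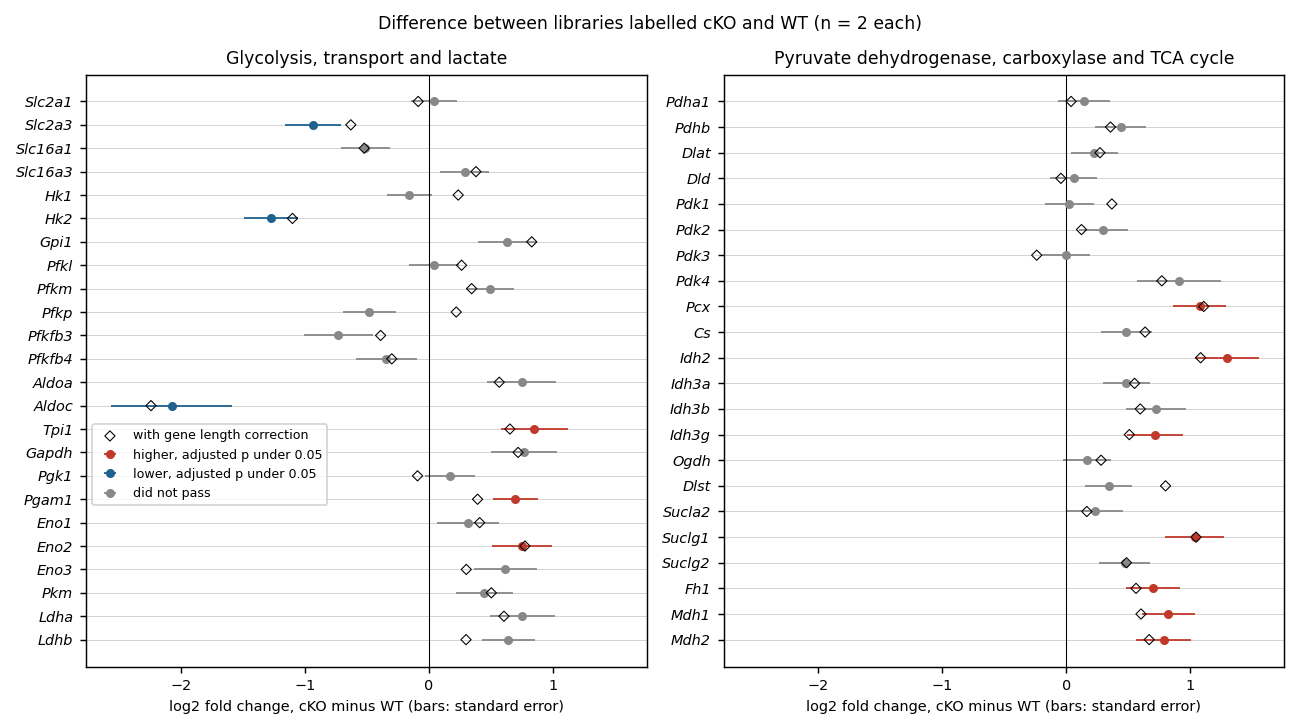
Log2 fold change of each member, cKO minus WT, with its standard error, and open diamonds for the value with the gene length correction. Blue points mark the 3 members called lower, red points the 10 called higher and grey points the 33 that did not pass, and the TCA cycle genes all lie to the right of 0.

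Ratios between isozymes do not move with the scaling of a library, but they do move with the length trend where the lengths of the genes differ. Of 16 ratios, 13 did not overlap between labels, and of 9 step totals 7 did not. With 2 libraries a label the smallest two-sided p an exact permutation test can give is 0.333, so none of these can pass. The largest log2 differences were those of Aldoc over Aldoa (-3.07), Hk2 over Hk1 (-1.11), Slc2a3 over Slc2a1 (-0.96), Pcx over Pdha1 (0.93) and Pdk4 over Pdk1 (0.92). In the fits with the length correction these differences were -2.81, -1.34, -0.54, 1.07 and 0.40, in the same order, against -2.83, -1.12, -0.98, 0.93 and 0.88 without it. Eno3 over Eno1 (0.30) and Pdk2 over Pdk1 (0.27) changed sign with the correction, to -0.11 and -0.25.

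**Figure D4:**
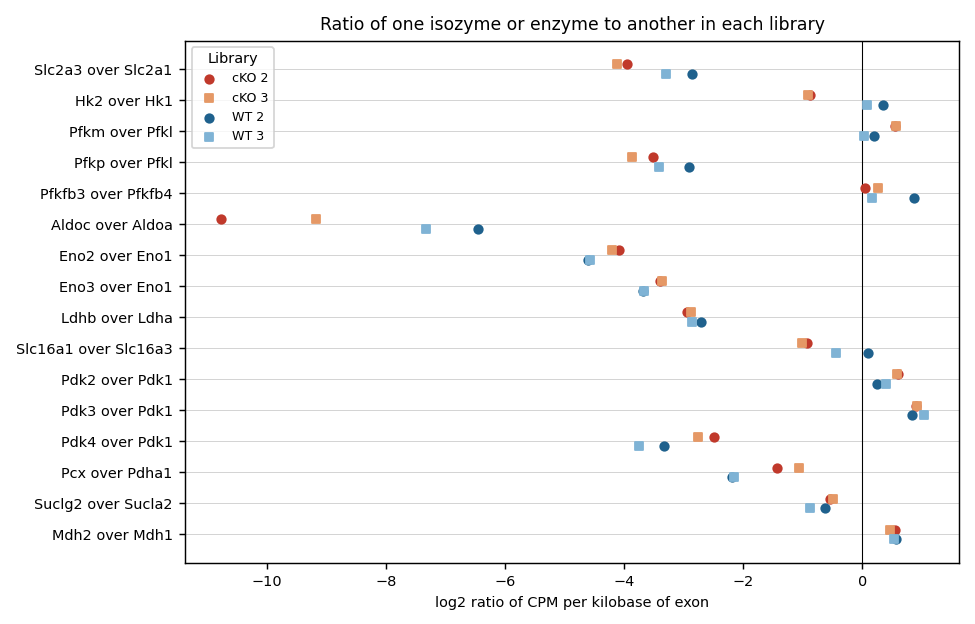
Log2 ratio of CPM per kilobase of exon between pairs of members in each library, with cKO points above WT points in each row. For Hk2 over Hk1 both cKO libraries lie below 0 and both WT libraries above it, and for Mdh2 over Mdh1, Pdk3 over Pdk1 and Pfkfb3 over Pfkfb4 the labels overlap. Where 0 falls for a pair depends on the exon lengths used.

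The remaining genes of these pathways went mostly one way where they were called. Of 70 listed genes that are no members, 62 were tested, 19 were higher (30.6%), 1 was lower (1.61%) and 42 did not pass, against 14.1% and 14.3% of all genes. The part of the exon length trend and of the TMM scaling in these shares, and in the values of this paragraph, was not tested. The list was also chosen with earlier results of these data known, so its shares give no independent support. Among the neighbours in the TCA cycle, the succinate dehydrogenase subunits Sdhb, Sdhc and Sdhd were higher, with Sdhb at 203 and 211 CPM in cKO against 48.9 and 68.4 CPM in WT (log2 fold change 1.82, adjusted p = 0.0120). Sdha, another subunit of the same enzyme, was not called (log2 fold change -0.076, adjusted p = 0.773). It had 111 and 102 CPM in cKO against 107.5 and 117 CPM in WT. Of 10 shuttle genes, 5 were higher (50%), among them the malate carriers Slc25a10 and Slc25a11 and the citrate carrier Slc25a1. At pyruvate entry, Mpc1, a subunit of the mitochondrial pyruvate carrier, was higher (log2 fold change 1.12, adjusted p = 0.0187), and Slc16a7, a pyruvate and lactate transporter, was the 1 gene that was lower (log2 fold change -0.97, adjusted p = 0.0363). Of 8 pentose phosphate genes, 4 were higher (50%), with Tkt, transketolase, at 509 and 524 CPM in cKO against 216 and 244 CPM in WT. Among 19 tested glycolysis and gluconeogenesis genes, 3 were higher (Slc2a4, Pgam2 and Pck2), or 15.8%, which is close to the background. Slc2a4, the insulin-responsive glucose transporter, is a gene of muscle and fat and Pgam2 one of muscle, and the part of the muscle and fat markers above in their values was not tested.

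Of 21 targets of HIF outside these pathways, 3 were higher (Ndrg1, Ddit4, Adm), or 14.3%, 2 were lower (Car9, Kdm3a), or 9.52%, and 16 did not pass. These shares are near or below those over all genes (14.1% and 14.3%), and the median log2 fold change was -0.05. Car9, a carbonic anhydrase and a common marker of hypoxia, had 4.34 and 3.70 CPM in cKO against 10.3 and 10.4 CPM in WT (log2 fold change -1.36, adjusted p = 0.0165). Adm went the other way, with 20.3 and 13.1 CPM in cKO against 3.14 and 6.30 CPM in WT (log2 fold change 1.82, adjusted p = 0.0180).

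Leaving out 1 cKO library gives a fit whose spread comes from the WT pair alone, with the lone cKO library assumed to vary like it. Without cKO 2 no member was called, where 3.03% of all genes were called higher and 2.98% lower, and without cKO 3 only Aldoc was, as lower (adjusted p = 0.000856, against 2.91% and 4.35% of all genes). Among the 13 members called in the main fit, the fold changes themselves moved little apart from that of Aldoc, as for Hk2 (-1.25 without cKO 2 and -1.31 without cKO 3), Idh2 (1.33 and 1.26) and Pcx (1.17 and 0.96). Among members not called there, that of Pfkfb3 moved more (-0.53 without cKO 2 and -0.98 without cKO 3). Without WT 2, 20 members were higher and 4 lower (17.8% and 15% of all genes), and without WT 3, 28 were higher and 6 lower (26.2% and 25%). In these 4 fits every called member kept its direction. DESeq2 called 15 members higher and 3 lower, against 14.4% of all genes each way, and all 13 members called by edgeR were among them. With no filter on low counts, Hk2, Pcx and Idh2 remained of the 13, where 2.77% and 2.12% of all genes were called higher and lower. A filter of 10 counts in every library lost Eno2, Idh3g and Fh1 (14.6% and 16.4% of all genes called), and the size factors of DESeq2 lost Eno2 (13.9% and 14.5%). Leaving ribosomal protein and mitochondrial DNA genes out of the TMM scaling changed no call among the members (14.3% and 13.8%). With the replicate number as a block, 12 members were higher and 4 lower (16.2% and 17%); the block with the length correction gave 15 higher and 4 lower (17.6% and 14.8%), and the crossed block 16 higher and 4 lower (17.4% and 18.1%).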

How the data were processed

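RNA of 4 libraries was measured by polyA RNA sequencing. The deposited values are raw counts per gene, made by the authors. Tools listed in the submitters' processing notes are HTSeq 0.11.3, STAR 2.6.1b and DESeq2 1.28.1, with a human build (GRCh38.p12) for these mouse samples, while the gene IDs are mouse and 99.5% were found in GENCODE vM21. The study's methods instead name a mouse genome and featureCounts, with defaults apart from listed options, none of which sets strand. Which of these pipelines made the deposited counts is not given, so whether strand was used is not certain. Reads in exon bases shared with a gene on the opposite strand, as in Pdha1, Gpi1, Pfkm and Pfkp, therefore cannot be assigned with certainty. Overlaps with other genes cover 16.1% of the exon bases of Pdha1, 11.5% of Gpi1, 10.7% of Pfkm and 5.58% of Pfkp. Pkm shares 15.3% of its exon bases with a gene on its own strand. Aldoa has a second row in the table, with at most 67 counts, and the first was used.

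Counts were fitted with edgeR 4.0.16 (glmQLFit, filterByExpr with a minimum count of 10, TMM, no block) in R 4.3.3, with Benjamini-Hochberg adjustment over 16157 genes. On simulated data (15669 genes, 2 against 2), 84 of 97 genes changed by log2 2 and 29 of 97 changed by log2 1 were called, and 12 of 15475 unchanged genes were. The simulated counts held few changed genes, no length trend and no scaling difference between labels. Their rate of false calls therefore need not hold for these libraries. Levels per kilobase used union exon length. Alternatives were DESeq2 1.42.0 and its size factors, TMM without ribosomal protein and mitochondrial DNA genes, library totals, other filters, a fold limit, a lowess correction on exon length, a replicate block and each library left out. Copies were counted as shared 75-base stretches of exons.

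The members and lists were chosen with earlier results of these data known. The text names the members called, those with an unadjusted p under 0.05, the most abundant member of each step and the isozymes of called members; other genes it names were chosen after their values were seen. One gene of these lists is not reported here.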

Additional observations from a re-analysis of the deposited data

How the results depend on the processing

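The 3 glycolysis genes called higher became 7 in DESeq2 and 0 with no filter on low counts. The 3 called lower became 1 with no filter, and the 7 PDH and TCA genes called higher became 2, where 31336 genes were tested and 2.77% were called higher. With library totals alone, an alternative chosen after seeing the data, these counts were 0, 6 and 3. Leaving out 1 library at a time gave 0 to 14 glycolysis genes higher, 0 to 6 lower, and 0 to 14 PDH and TCA genes higher.

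The labels do not say what a shared replicate number marks. The deviations of same-numbered libraries had r = -0.101 over 16157 genes. WT 3 differed from WT 2 along exon length, with medians of 0.557 in the shortest of 10 length groups and -0.477 in the longest. For cKO 3 against cKO 2 these were -0.018 and -0.024, so this r cannot settle whether the numbers mark a pairing. The replicate block gave 3 glycolysis genes higher and 4 lower and 9 PDH and TCA genes higher, adding Pfkfb3, Pdk4 and Idh3b to the calls. The replicate block with gene length correction gave 11 PDH and TCA genes higher. Crossing the numbers, also chosen after seeing the data, pairs the libraries by Xist and Ddx3y and gave 7 glycolysis genes higher.

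With the length of the longest transcript in place of union exon length, the log2 difference of the hexokinase total was -0.49 (-0.64 with union length) and that of the lactate transporter total 0.008 (-0.03). Over the 46 members, the TMM alternative without ribosomal protein and mitochondrial DNA genes changed no call, the size factors of DESeq2 lost 1, the filter of 10 counts in every library lost 3, and no called member changed direction under any of these fits. With 2 libraries a label, changes of 1 log2 unit were mostly missed in the simulated data, so members that did not pass are not shown to be unchanged.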
